A study of Mus musculus with 12 samples.

Results

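E2f7 and E2f8 are the atypical members of the mouse E2F gene family. They were examined here across 4 genotype groups of sorted spleen cells. The members were the probe sets annotated to 1 of these symbols alone, which gave 2 of 35557 probe sets on the array: 1 for E2f8 (gene number 108961) and 1 for E2f7 (gene number 52679). The array held 19938 genes by the same rule. Both lay above the filter on low signals and are among the 12980 genes tested.

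RNA came from Ter119+CD71high cells sorted by flow cytometry from the spleens of mice aged 3 months. Ter119 marks red cell precursors, and CD71 is the transferrin receptor through which they take up iron. The 4 groups were wild type (WT), mice lacking E2f8 by label (E2f8 KO), mice lacking Rb by label (Rb KO) and the Rb;E2f8 double knockout (DKO), with 3 arrays each, called biological replicates in the titles. The sources used here do not say how the alleles were made or in which cells they were removed. Values are signals of Affymetrix arrays, read here as log2 from their range, with array medians between 6.22 and 6.35. Precision is limited by the number of arrays.

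E2F factors switch the genes of S phase entry on and off. The activating members pair with a DP partner and are held in check by Rb, the retinoblastoma protein, whereas E2F7 and E2F8 bind DNA without a DP partner through a pair of DNA-binding domains and repress independently of Rb family proteins. Both are themselves transcribed as E2F target genes in cycling cells, from late G1 into S phase, and they act in a negative feedback loop on the targets of the activating E2Fs. In red cell precursors, which divide rapidly before they leave the cell cycle, Rb is known for its part in cell cycle exit.

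The upstream sequences of the genes are shown because E2f7 and E2f8 are known as E2F target genes and their signals moved together on these arrays. Each is the 250 bases before the RefSeq start site, 5′ to 3′ on the gene's strand, in GRCm38.p6: chr7:48881597-48881846 on the minus strand for E2f8 and chr10:110745189-110745438 on the plus strand for E2f7. Capitals mark every match, on either strand, to 4 kinds of motif: the E2F motif in 8 letters (TTTCCCGC, TTTCGCGC, TTTGCCGC or TTTGGCGC), the same motifs without their first T, in 7 letters, the CHR element of cell cycle promoters (TTTGAA) and the CCAAT box (CCAAT).
E2f8: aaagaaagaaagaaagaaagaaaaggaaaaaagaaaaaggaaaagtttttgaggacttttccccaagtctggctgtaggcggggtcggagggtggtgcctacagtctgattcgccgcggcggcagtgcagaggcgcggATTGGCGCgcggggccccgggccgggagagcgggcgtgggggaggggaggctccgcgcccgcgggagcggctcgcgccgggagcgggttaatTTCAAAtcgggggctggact
E2f7: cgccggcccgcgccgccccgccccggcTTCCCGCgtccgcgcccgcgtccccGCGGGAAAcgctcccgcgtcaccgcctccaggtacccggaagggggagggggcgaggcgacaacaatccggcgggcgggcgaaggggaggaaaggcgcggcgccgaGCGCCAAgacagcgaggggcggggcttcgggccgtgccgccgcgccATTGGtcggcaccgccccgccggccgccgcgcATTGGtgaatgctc
The E2f7 window held 1 match to the 8-letter E2F motif, on the minus strand at positions -198 to -191 from the start site. The 8-letter motif was present in 1.86% of 32851 RefSeq windows of the same length. E2f7 had 3 matches to the 7-letter form, 1 of them inside the 8-letter match, and E2f8 had 1, at -111 to -105, where all windows held it in 7.89%. The 7-letter match of E2f8 overlaps a CCAAT box at -112 to -108, and E2f7 carried 2 CCAAT boxes, at -46 to -42 and -14 to -10, against a share of 33.8% of windows with at least 1. A CHR match stood in the E2f8 window at -20 to -15, and 16.0% of windows held one. GC content was 62.4% for E2f8 and 79.2% for E2f7, against a median of 52.4%. The 7-letter form and the CCAAT box were added to the search after the sequences had been seen, and a match describes letters, not binding.

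E2f8, the gene named in the E2f8 KO and DKO labels, was read first as a check of the labels. The 3 WT arrays gave log2 signals of 12.28, 11.70 and 11.88, and the 3 Rb KO arrays gave 12.36, 12.52 and 11.68. The arrays labelled E2f8 KO gave 12.89, 12.81 and 12.74. DKO arrays gave 13.13, 13.17 and 13.09. The signal was thus higher, not lower, on all 6 arrays labelled as lacking E2f8 than on any of the 6 others. No source used here says where the probe set lies relative to the deleted exons, and one outside them cannot check the labels. "E2f8 KO" and "DKO" therefore stand below for the arrays so labelled.

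E2f8 signal rose by 0.86 ± 0.19 (SE) on the log2 scale in E2f8 KO against WT, a 1.81-fold difference (limma, adjusted p = 0.00728). Against the same WT arrays the DKO arrays were higher by 1.18 ± 0.19, or 2.26-fold (adjusted p = 0.000478). DKO exceeded Rb KO by 0.94 (1.92-fold, adjusted p = 0.00224), and E2f8 KO exceeded Rb KO by 0.63 (adjusted p = 0.0283). The last of these calls was the least firm of the 4. It was lost without any one E2f8 KO array (adjusted p = 0.0925, 0.0722 and 0.0567 without replicates 1, 2 and 3) and without Rb KO replicate 3, when the difference was 0.37 (adjusted p = 0.101). It was also lost when arrays were centred on their medians (adjusted p = 0.0532) and when the 2 groups were fitted alone (adjusted p = 0.0714).

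Many genes differed in the same comparisons. E2f8 KO and WT differed in 26.1% of all genes tested (11.9% higher and 14.2% lower), DKO and WT in 38.2% (20.6% higher and 17.6% lower), DKO and Rb KO in 37.1% (19.5% higher and 17.6% lower), and E2f8 KO and Rb KO in 27.7% (12.2% higher and 15.6% lower). The groups of E2f8 did not overlap in any of these 4 comparisons, which was also true of 45.8%, 45.9%, 43.6% and 47.5% of all genes. In DKO against WT, 787 genes rose more than E2f8.

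The Rb label alone left E2f8 without a called difference. Rb KO exceeded WT by 0.23 ± 0.19, with a 95% interval from -0.18 to 0.65 (adjusted p = 0.999773). Values of both groups overlapped, and the lowest of all 12 arrays was Rb KO replicate 3. In this comparison 0.00770% of all genes were called, and 597 had an unadjusted p under 0.05. Within the arrays labelled as lacking E2f8, DKO exceeded E2f8 KO by 0.32 (95% interval -0.097 to 0.73, adjusted p = 0.395), against 2.37% of all genes called (1.73% higher). The 3 DKO values all lay above the 3 E2f8 KO values, as groups did without overlap for 35.0% of genes. Fitted on those 2 groups alone, whose E2f8 spread was small, the same 0.32 passed the threshold (adjusted p = 0.0155).

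**Figure D1:**
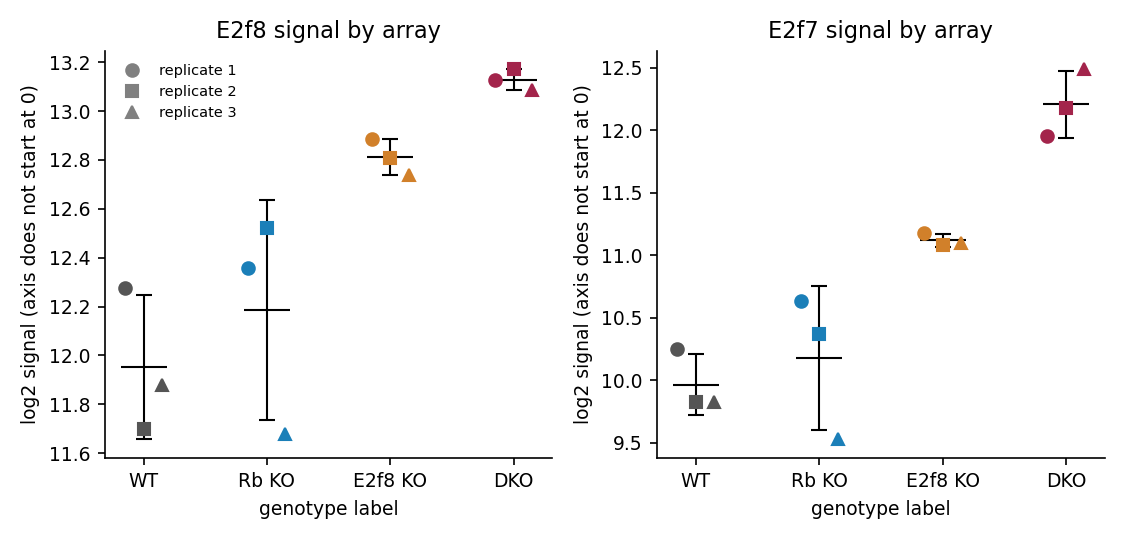
Log2 signal of E2f8 and of E2f7 on each of the 12 arrays (y axis), by genotype label (x axis), with points for arrays and bars for the group mean and SD, and each gene on its own axis. E2f8 lies between 11.68 and 12.52 on the WT and Rb KO arrays and between 12.74 and 13.17 on the others, and E2f7 between 9.53 and 10.63 against 11.08 to 12.49.

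E2f7, the other atypical gene, is not named in any label. Its log2 signal was 10.25, 9.82 and 9.82 on the WT arrays and 10.63, 10.37 and 9.53 on the Rb KO arrays. On the E2f8 KO arrays it was 11.18, 11.08 and 11.10. DKO arrays had 11.95, 12.18 and 12.49, the highest of the series. E2f8 KO values lay above all WT and Rb KO values, and DKO values lay above all E2f8 KO values. In either direction, 45.8% of all genes did not overlap between E2f8 KO and WT, and 47.5% between E2f8 KO and Rb KO. Between DKO and E2f8 KO the share was 35.0%.

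The rise of E2f7 in E2f8 KO over WT was 1.16 ± 0.25 (2.23-fold, adjusted p = 0.00603). In DKO it was 2.24 ± 0.25, with a 95% interval from 1.71 to 2.78, or 4.74-fold (adjusted p = 4.02e-05). Only 46 of the 12980 genes rose more than E2f7 between WT and DKO. Compared with Rb KO, DKO was higher by 2.03 (4.09-fold, adjusted p = 0.000123) and E2f8 KO by 0.94 (1.92-fold, adjusted p = 0.0139), the latter lost without E2f8 KO replicate 1 (0.92, adjusted p = 0.0512). Rb KO and WT differed by 0.21 (95% interval -0.32 to 0.74, adjusted p = 0.999773), and without Rb KO replicate 1 this value was -0.016.

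DKO exceeded E2f8 KO in E2f7 signal by 1.09 (95% interval 0.56 to 1.62, 2.13-fold, adjusted p = 0.0386), between groups where 1.73% of all genes were called higher and 0.647% lower. The size of the difference stayed between 0.95 and 1.22 when any array was left out, but the call was lost in 6 of the 12 such fits. These were the fits without E2f8 KO replicate 1, 2 or 3 (adjusted p = 0.134, 0.141 and 0.128), DKO replicate 2 or 3 (0.141 and 0.147) and Rb KO replicate 2 (0.0541).

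**Figure D2:**
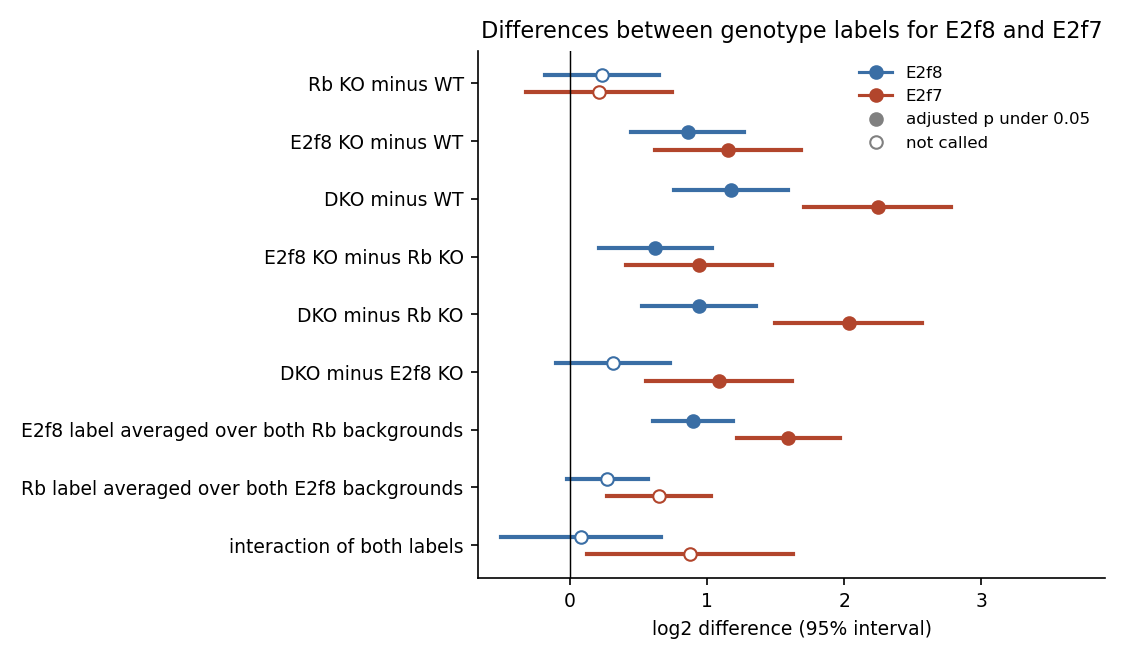
Log2 difference between genotype labels for E2f8 (blue) and E2f7 (red), with 95% intervals from limma; filled points have an adjusted p under 0.05 and open points do not. All filled points lie to the right of 0, and the intervals of Rb KO minus WT span 0 for both genes.

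Averaging each label over both backgrounds of the other used all 12 arrays. The E2f8 label went with a rise of 0.90 ± 0.14 in E2f8 (1.87-fold, adjusted p = 0.000167) and of 1.59 ± 0.17 in E2f7 (3.02-fold, adjusted p = 2.09e-05). By this measure 45.8% of all genes were called (22.9% higher). For the Rb label, where 2.51% of genes were called (1.16% higher and 1.35% lower), the values were 0.28 ± 0.14 for E2f8 (95% interval -0.017 to 0.57, adjusted p = 0.341) and 0.65 ± 0.17 for E2f7 (1.57-fold, adjusted p = 0.0711). Neither passed the threshold. Both did without Rb KO replicate 3, the lowest array for both genes, at 0.40 for E2f8 (adjusted p = 0.0477) and 0.81 for E2f7 (adjusted p = 0.00568).

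The interaction asks whether the Rb label went with a different change on the arrays labelled as lacking E2f8. It was 0.88 ± 0.35 for E2f7, with an unadjusted p of 0.026 and an adjusted p of 0.844. For E2f8 it was 0.08 ± 0.27 (adjusted p = 0.966). Of all genes, 0.0770% were called in this comparison (0.0539% with a positive and 0.0231% with a negative value). The larger step of E2f7 from E2f8 KO to DKO than from WT to Rb KO was therefore not called as a difference between backgrounds.

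Levels of E2f8 ran, from low to high, WT (11.95 ± 0.29, SD, n = 3), Rb KO (12.19 ± 0.45), E2f8 KO (12.81 ± 0.073) and DKO (13.13 ± 0.043). E2f7 followed the same order, with means of 9.96 ± 0.25, 10.18 ± 0.58, 11.12 ± 0.050 and 12.21 ± 0.27. WT and Rb KO were neighbours that did not differ beyond their spread for either gene, and E2f8 KO and DKO were called apart for E2f7 and not for E2f8. Rb KO had the widest spread for both. Pooled over the groups, the within-group SD was 0.272 for E2f8 and 0.342 for E2f7, against a median of 0.223 over all genes tested.

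The change of E2f7 was set against that of E2f8 on the same arrays, as a difference of differences, which does not compare the levels of 2 probe sets. Averaged over Rb backgrounds, the E2f8 label went with a rise larger by 0.69 for E2f7 than for E2f8 (two-sided exact permutation test within Rb backgrounds, p = 0.005, the smallest that 400 arrangements allow, adjusted p = 0.04 over 8 tests). E2f7 minus E2f8 was higher on each of the 6 arrays with that label than on the arrays without it in the same Rb background. For the Rb label the rise was larger by 0.37 (exact permutation p = 0.055, adjusted p = 0.114). Between single groups the differences were 0.30 for E2f8 KO against WT, 1.07 for DKO against WT, 1.09 for DKO against Rb KO and 0.77 for DKO against E2f8 KO. Each had an exact permutation p of 0.1, the smallest that 3 against 3 arrays allow. E2f8 signals lay nearer the top of the table (14.84) than those of E2f7, and whether its range was compressed there was not tested. E2f8 is also the gene named in the label, and its probe set has no stated position relative to the deleted exons. Any part of it inside them would lose signal only on the arrays with that label. The larger rise of E2f7 is thus a difference between 2 signals, and its cause was not tested.

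**Figure D3:**
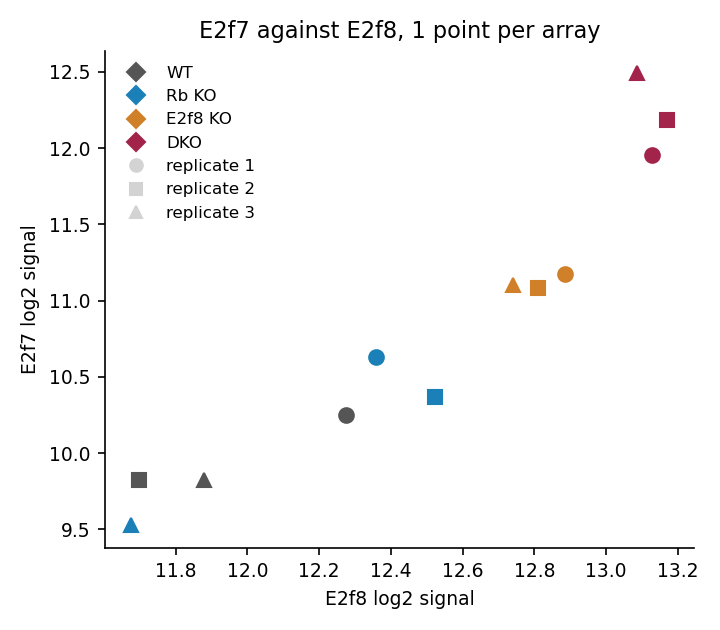
Log2 signal of E2f7 (y axis) against that of E2f8 (x axis), 1 point per array, coloured by genotype label and shaped by replicate number. WT and Rb KO arrays lie at the lower left, E2f8 KO arrays between, and DKO arrays at the upper right, where E2f7 spreads from 11.95 to 12.49 while E2f8 stays between 13.09 and 13.17.

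Over the 12 arrays E2f7 and E2f8 signals correlated with Pearson's r = 0.946, and deviations from the group means with r = 0.814. These are descriptions: the 12 points share genotype labels and the cell makeup of each sort. Among 12979 other genes E2f7 was 201st in likeness to E2f8, and E2f8 was 421st in likeness to E2f7. The genes most like E2f8 were Rbm6 (r = 0.986), which encodes an RNA-binding protein, Pmf1 (0.977), of the kinetochore, Rint1, Fam133b, Fam111a, Lig1 (0.973), the DNA ligase that joins lagging strand fragments, Cyth2 and Orc6 (0.973), a subunit of the origin recognition complex. For E2f7 they were Naa40 (0.991), an N-terminal acetyltransferase, Mfsd11, Dnmt1 (0.989), the maintenance DNA methyltransferase, Ipo5, Slc25a12, Rbmx2, Hnrnpab and Pmf1 (0.985). Pmf1 was on both lists. Deviations from group means of these genes correlated with those of E2f8 at r between 0.861 and 0.967, and with those of E2f7 between 0.880 and 0.964. The most opposite patterns were those of Fam220a (-0.957), Becn1 (-0.952), Slc48a1 (-0.951) and Ccndbp1 (-0.950) for E2f8, where Becn1 acts in autophagy and Slc48a1 transports heme. For E2f7 they were Ube2r2 (-0.971), Rnf10 (-0.971), Tent5c (-0.969) and Dcaf12 (-0.968). Within groups these values lay between -0.900 and -0.762 for E2f8 and between -0.780 and -0.698 for E2f7.

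The classical E2F genes, E2f1 to E2f6, and the DP genes Tfdp1 and Tfdp2 were read as the counterparts of the atypical genes. This list holds repressors as well as activators. Of 8 classical E2F and DP genes, 2 rose in E2f8 KO against WT, and 4 rose and 1 fell in DKO against WT, where 11.9% of all genes were called higher in the first comparison, and 20.6% higher and 17.6% lower in the second. The median difference over the 8 was 0.19 in the first and 0.79 in the second, where the median of all genes was 0.060 and 0.00044. E2f1, an activator that E2F7 and E2F8 are known to repress in other cells, went from 10.29 ± 0.50 in WT to 11.28 ± 0.080 in E2f8 KO, 11.36 ± 0.37 in Rb KO and 12.24 ± 0.13 in DKO (SD, n = 3). It rose by 0.99 in E2f8 KO (adjusted p = 0.00893) and by 1.95 in DKO (adjusted p = 6.14e-05), and the Rb label averaged over both backgrounds went with 1.01 (adjusted p = 0.00686).

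E2f6, a repressor that lacks the domain for Rb binding, had the largest change of the group, 1.71 in E2f8 KO (adjusted p = 0.00639) and 2.45 in DKO (adjusted p = 0.000294). Tfdp1, the main DP partner, rose by 1.30 in DKO (adjusted p = 0.000727), and Tfdp2 fell by 0.53 (adjusted p = 0.00352). In E2f8 KO neither was called, with differences of 0.59 for Tfdp1 (adjusted p = 0.0725) and -0.24 for Tfdp2 (adjusted p = 0.151). E2f3, an activator, rose by 1.23 in DKO against WT (adjusted p = 0.00519) and differed by -0.015 in E2f8 KO against WT (adjusted p = 0.977). Between DKO and E2f8 KO the called members were E2f3 (1.24, adjusted p = 0.0462) and E2f1 (0.96, adjusted p = 0.0494). Both calls lay close to the threshold and were lost without any one DKO or E2f8 KO array (adjusted p from 0.0663 to 0.209 for E2f3 and from 0.067 to 0.167 for E2f1), and without WT replicate 3 or Rb KO replicate 2 (adjusted p between 0.0535 and 0.0684). E2f3 was also not called after quantile normalization (adjusted p = 0.0909), as the mean of its probe sets (0.0899), with the replicate number as a block (0.0553), with no filter (0.0522) or with arrays centred (0.0551). E2f1 was also not called with no filter (adjusted p = 0.0574), with arrays centred (0.0591) or with no variance trend (0.0543). The B cell covariate described below ended both calls (adjusted p = 0.0761 for E2f3 and 0.0974 for E2f1). E2f2 changed by -0.03 in DKO against WT (adjusted p = 0.895).

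Among the 3 pocket protein genes, Rb1 was the other gene named in the labels. Its mean signal was 12.83 ± 0.17 in WT, 12.42 ± 0.11 in Rb KO, 11.71 ± 0.031 in E2f8 KO and 12.13 ± 0.13 in DKO (SD, n = 3). The difference of Rb KO from WT was -0.41 (adjusted p = 0.394), with no array of Rb KO above a WT array, which also held for 6.28% of genes in either direction. In E2f8 KO, which the labels give no Rb change, Rb1 was lower than WT by 1.11 (log2 difference -1.11, adjusted p = 0.000154). The probe set of Rb1, like that of E2f8, has no stated position relative to the deletion. Rbl1, which encodes p107, rose by 0.92 in DKO (adjusted p = 0.00556), and Rbl2, which encodes p130, fell by 0.90 (adjusted p = 0.0027).

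**Figure D4:**
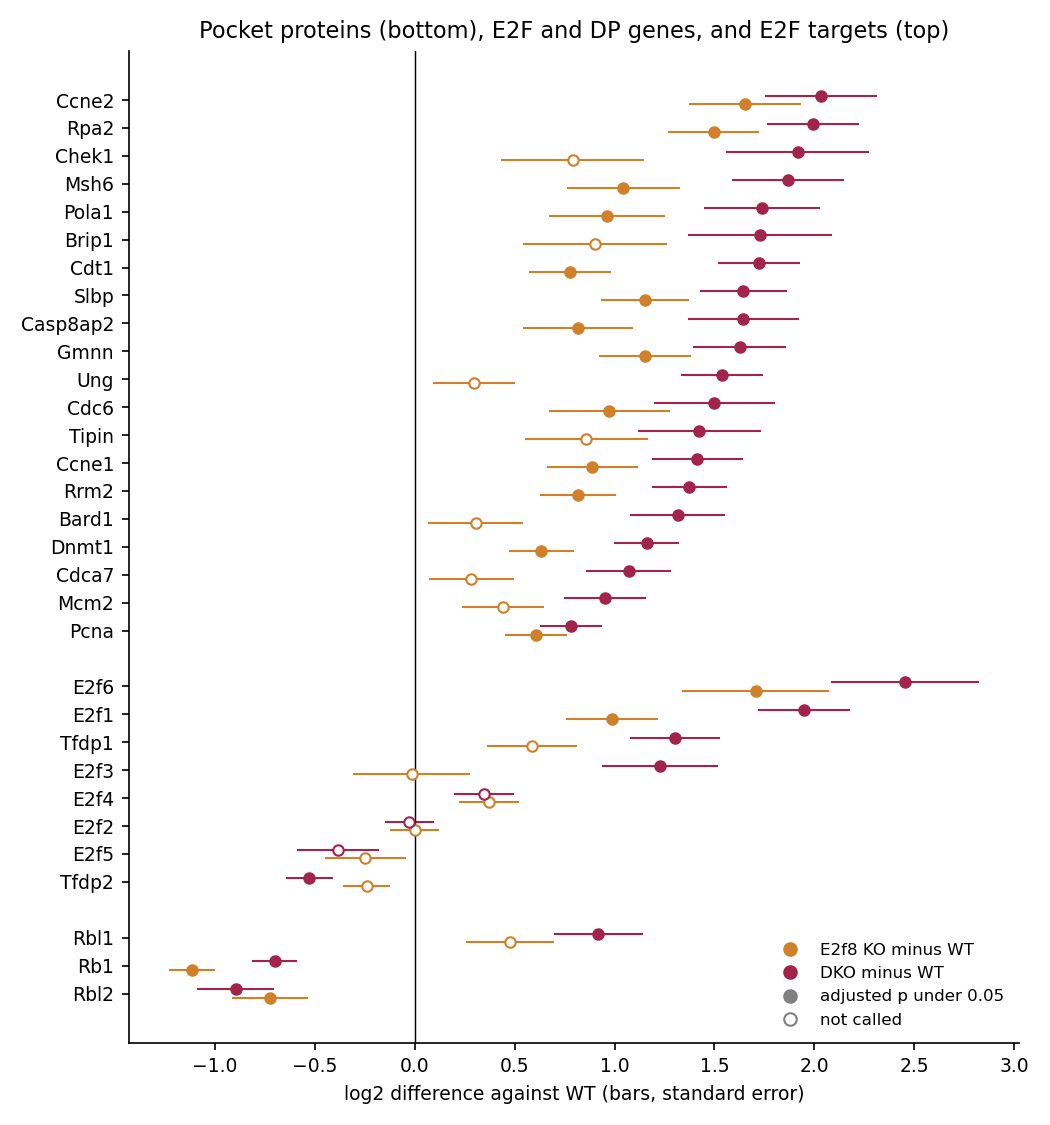
Log2 difference from WT (x axis, with standard error bars) of pocket protein genes, classical E2F and DP genes and E2F targets, for E2f8 KO (orange) and DKO (dark red), with filled points at an adjusted p under 0.05. E2f6 and E2f1 have the largest DKO values of the E2F genes, at 2.45 and 1.95, every target lies to the right of 0, and Rb1 lies at -1.11 and -0.70.

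A list of S phase E2F target genes that atypical E2Fs repress in other cells had 24 genes, of which 21 were measured and the others were not analysed here. E2f1 and Chek1 stood on another list too. Relative to WT, 14 of the 21 rose in E2f8 KO (median difference 0.86, against 0.060 over all genes and 11.9% of all genes called higher) and 21 rose in DKO (median 1.63, against 0.00044 and 20.6%). None was lower in these comparisons. In Rb KO none passed the threshold with limma, and the median was 0.34, against 0.037 over all genes. At an unadjusted p under 0.05, 5 were higher, as were 133 of the 12980 genes tested. DKO exceeded Rb KO in 20 of the 21 (median 1.12, 19.5% of all genes higher). The count in E2f8 KO fell to 6 without WT replicate 2 and to 7 without E2f8 KO replicate 1.

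Rpa2, a subunit of the protein that coats single-stranded DNA, rose by 1.50 in E2f8 KO (adjusted p = 0.00124) and by 1.99 in DKO (adjusted p = 5.17e-05). Cdt1, which loads the replicative helicase at origins, rose by 0.78 (adjusted p = 0.0153) and 1.72 (adjusted p = 6.17e-05). The first of these calls was lost without WT replicate 2 (adjusted p = 0.0731) or E2f8 KO replicate 1 (adjusted p = 0.0575). Slbp, which binds the end of histone mRNAs, rose by 1.15 (adjusted p = 0.00348) and 1.65 (adjusted p = 0.000129). Ung, which removes uracil from DNA, differed by 0.30 in E2f8 KO (adjusted p = 0.309) and rose by 1.54 in DKO (adjusted p = 0.000132). Chek1, the checkpoint kinase that also phosphorylates E2F7 and E2F8, differed by 0.79 in E2f8 KO (adjusted p = 0.12) and rose by 1.92 in DKO (adjusted p = 0.00113).

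Between DKO and E2f8 KO, where E2f7 rose and E2f8 was not called, 4 of the 21 targets rose (Ung, Cdt1, Bard1 and E2f1), with a median of 0.56 against -0.022 over all genes, of which 1.73% were called higher and 0.647% lower. Ung had the largest difference among them, 1.24 (adjusted p = 0.00789), a call lost without E2f8 KO replicate 1 (adjusted p = 0.0504) or DKO replicate 2 (adjusted p = 0.0512). This count moved widely: it was 0 without E2f8 KO replicate 1 or DKO replicate 2, 1 without either of the other E2f8 KO or DKO arrays, 2 without WT replicate 3 or Rb KO replicate 2 and 8 without Rb KO replicate 1. It was 16 with array weights, 19 with those groups fitted alone, 2 with no filter or with arrays centred on their medians, and 1 (Ung) with the B cell covariate described below. In the same comparison limma called none of 14 measured genes of a proliferation list in either direction. None of these 14 had an unadjusted p under 0.05, which 2349 of the 12980 genes tested had, and their median was -0.12. With 2.37% of all genes called, a count of 0 in so short a list is near the share of all genes. Other lists did move: 6 of 16 macrophage markers (median -1.02) and 3 of 14 B cell markers (median -1.20) were called lower. Differences between the lists were not tested.

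Of the genes that act on atypical E2F proteins, 3 of 4 listed were measured. Ccnf, the cyclin F subunit of a ubiquitin ligase that marks E2F7 and E2F8 for destruction, rose by 1.05 in E2f8 KO (adjusted p = 0.00775) and by 1.17 in DKO (adjusted p = 0.00198). Fzr1, which encodes Cdh1, the activator of another such ligase, differed from WT by 0.17 in E2f8 KO (adjusted p = 0.422) and by -0.17 in DKO (adjusted p = 0.384).

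The signals of other cell types moved with the same labels. Erythroid markers were high in all groups, with list means over 10 genes of 12.75 ± 0.14 in WT, 12.57 ± 0.36 in Rb KO, 13.02 ± 0.079 in E2f8 KO and 12.98 ± 0.0072 in DKO (SD, n = 3). Against WT, 2 of the 10 were called higher and 1 lower in E2f8 KO, and likewise in DKO. Alas2 was the lower one, by -0.27 in E2f8 KO (limma, adjusted p = 0.0161) and -0.45 in DKO (adjusted p = 0.000418). Epor was among the higher ones, by 0.86 in E2f8 KO (adjusted p = 0.0126) and 0.66 in DKO (adjusted p = 0.0276). The median difference over the 10 was 0.26 in E2f8 KO and 0.19 in DKO, against 0.060 and 0.00044 over all genes. Over all genes tested, 14.2% were lower and 11.9% higher in E2f8 KO than in WT, and 17.6% lower and 20.6% higher in DKO. All 14 measured B cell markers were lower in E2f8 KO and in DKO than in WT, and their mean was 11.28 ± 0.66 in WT, 11.45 ± 1.18 in Rb KO, 8.25 ± 0.21 in E2f8 KO and 6.91 ± 0.59 in DKO. Single arrays ranged from 10.09 to 12.16 without the E2f8 label and from 6.40 to 8.44 with it. Of 16 macrophage markers, 14 were lower in E2f8 KO and 15 in DKO, and their mean was 10.22 in WT, 9.30 in Rb KO, 8.82 in E2f8 KO and 7.82 in DKO, and of 10 T and NK cell markers 9 were lower in each, with means of 7.83, 7.60, 6.45 and 6.01 across the 4 groups. Of 15 granulocyte markers, 9 were higher in each, and their mean was 6.43 in WT, 6.89 in Rb KO and 8.33 in E2f8 KO. The DKO arrays had granulocyte means of 6.85, 7.94 and 10.05, so that replicate 1 lay within the Rb KO range and replicate 3 above all other arrays. The mean of 14 proliferation genes was 10.96 ± 0.25 in WT, 10.89 ± 0.53 in Rb KO, 11.88 ± 0.049 in E2f8 KO and 11.77 ± 0.046 in DKO, and 13 of the 14 rose in each of E2f8 KO and DKO against WT. The Rb label averaged over both backgrounds also went with lower markers. Called lower were 11 of 16 macrophage markers (median -0.98) and 3 of 14 B cell markers, against 1.35% of all genes. No erythroid, T and NK cell, granulocyte or proliferation gene was called for that label. In Rb KO against WT limma called no macrophage marker. At an unadjusted p under 0.05, 13 of 16 were lower, as were 464 of the 12980 genes tested. In these bulk samples, fewer cells of a type and less RNA per cell cannot be told apart.

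**Figure D5:**
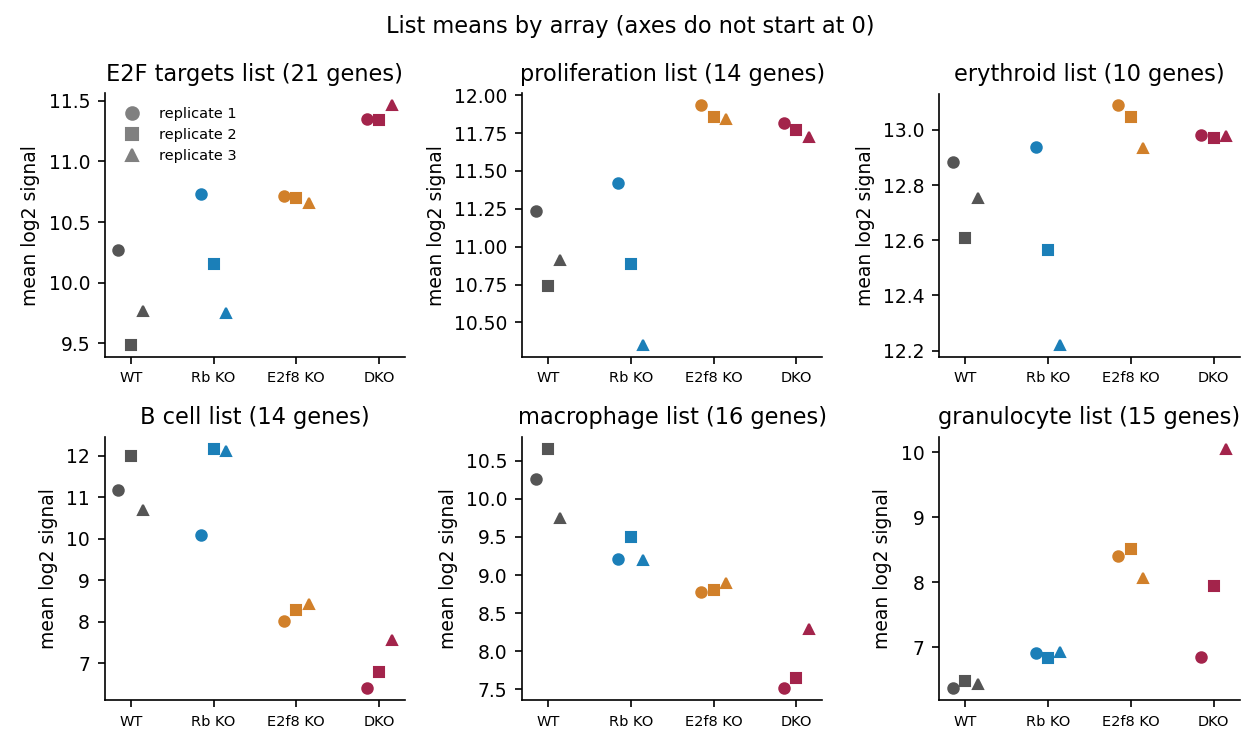
Mean log2 signal of the measured genes of each list on every array (y axis), by genotype label (x axis), shaped by replicate number, with 1 panel per list and its own axis. The B cell mean falls from 11.28 in WT to 6.91 in DKO while the E2F target mean rises from 9.84 to 11.38, and the proliferation mean is 11.88 in E2f8 KO and 11.77 in DKO.

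Across the 12 arrays the B cell mean correlated with E2f8 at r = -0.890 and with E2f7 at r = -0.914, and within groups, as deviations from group means, at r = -0.350 and -0.322. The E2F target mean correlated with E2f8 at 0.943 and with E2f7 at 0.966, and within groups at 0.778 and 0.849. For the erythroid mean the values were 0.769 and 0.720, and within groups 0.772 and 0.847. For the proliferation mean they were 0.896 and 0.835, and within groups 0.808 and 0.844. The within-group values of the targets were thus close to those of the erythroid and proliferation lists. These points share genotype labels, arrays and cell makeup. With the B cell mean of each array as a covariate, E2f8 was higher by 0.47 in E2f8 KO (adjusted p = 0.615) and by 0.62 in DKO (adjusted p = 0.447) than in WT, and E2f7 by 0.71 (adjusted p = 0.534) and 1.60 (adjusted p = 0.121). In that fit none of the 21 E2F targets was called in either of these comparisons, and their medians were 0.16 and 0.25. All directions of E2f7 and E2f8 between pairs of groups stayed the same, and no call of either gene between pairs of groups remained. The slope on the covariate comes from differences within groups, which were widest in Rb KO (10.09, 12.16 and 12.11), and it is carried over the far larger distance between group means. The part of cell makeup in the rises of E2f7 and E2f8 was not tested beyond this fit.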

How the data were processed

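The 12 arrays measured total RNA of sorted spleen cells. The authors' deposited values were taken as log2 from their range (1.07 to 14.84), since no source used here states the scale. MAS5 is named in the submitters' processing notes, but it was written for arrays with paired mismatch probes, which this gene-level Affymetrix design lacks, and how it was applied is not stated. The sources used here do not state scaling, background correction, pooling, scan dates or batches.

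Probe sets were named from the platform annotation and updated by gene number (21698 of the 21789 with 1 symbol matched). Those with several symbols (1621) or none (12147), and the lowest 40% by mean (14223, below 5.84), were removed. The probe set with the highest mean stood for a gene, which gave 12980 genes. Values were used as deposited.

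The model was limma's (3.58.1, R 4.3.3) on all 12 arrays, with 1 coefficient per label, 8 residual degrees of freedom, a variance trend and two-sided tests. P-values were adjusted by Benjamini-Hochberg within each comparison and called under 0.05. They set each difference against the spread between these arrays, as estimated with the variance trend over all genes. The changes of E2f7 and E2f8 were compared by exact permutation over arrays.

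Named genes were E2f7, E2f8, the 8 most and 4 least correlated genes of each, and up to 5 members of each list, those with the smallest p in DKO against WT or a known tie to E2f7 or E2f8. Ung, Bard1, Fzr1, E2f2 and Epor were named after their values were seen where that rule did not take them. The members and lists were chosen with earlier results of these data known. The fit was tested on simulated data. Alternatives covered the filter, scaling, probe set choice, variance trend, array weights, groups fitted, the replicate number, a B cell covariate and each array left out.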

Additional observations from a re-analysis of the deposited data

Results flagged for a closer look

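Rb1 was singled out because the Rb label went with opposite differences in the 2 E2f8 backgrounds. Rb KO was lower than WT on every array (difference -0.41), and DKO was higher than E2f8 KO on every array (0.41). In either direction, groups did not overlap for 6.28% of all genes in the first comparison and 35.0% in the second. Rb1 was picked by this separation, so the separation is not a further result. The interaction was 0.82 ± 0.16, with an unadjusted p of 0.000206 and an adjusted p of 0.158 by limma over all genes, so it was not called. No source used here says which exons the Rb1 probe set covers, and the cause was not tested.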

How the results depend on the processing

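The B cell covariate ended every call of E2f7 and E2f8 between pairs of groups and for the averaged E2f8 label. Under it E2f8 values were 0.47 (E2f8 KO minus WT), 0.62 (DKO minus WT), 0.36 (DKO minus Rb KO), 0.22 (E2f8 KO minus Rb KO) and 0.42 (E2f8 label averaged), and its interaction, never called, turned to -0.11. E2f7 values were 0.71, 1.60, 1.36 and 0.47 in the same pairs, 0.89 for DKO minus E2f8 KO (adjusted p = 0.0506) and 1.03 for the E2f8 label, while its Rb label value of 0.56 was called (adjusted p = 0.0463). DKO minus WT turned to -0.46 for Rbl1, -0.19 for Ccnf and 0.49 for Nrp1, none called. Fitting only the groups compared gave 0.32 for E2f8 in DKO minus E2f8 KO (called) and 0.63 in E2f8 KO minus Rb KO (not called). Centring arrays gave 0.59 in the latter (not called). Array weights, whose estimation stopped before full convergence, gave called Rb label values of 0.38 for E2f8 and 0.69 for E2f7, and -0.11 for the E2f8 interaction. Quantile normalization gave a called Rb label value of 0.67 for E2f7. Leaving out 1 array gave, for E2f8, 0.37 to 0.79 in E2f8 KO minus Rb KO, 0.19 to 0.40 for the Rb label and -0.17 to 0.25 for the interaction. For E2f7 it gave -0.016 to 0.54 in Rb KO minus WT, 0.95 to 1.22 in DKO minus E2f8 KO, 0.62 to 1.17 in E2f8 KO minus Rb KO and 0.54 to 0.81 for the Rb label. No other setting changed a call or direction of E2f7 or E2f8. The E2f7 rise exceeded the E2f8 rise with the E2f8 label by 0.60 to 0.76 in all settings run. For other named genes, only 27 results from the lists that were called in the main fit were followed, so no gained call could appear. Of their 593 values, 529 kept their call and direction, 61 lost the call and 3 turned. The genes named for their correlation with E2f7 or E2f8 were not among them.

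Replicate numbers gave no clear pairing of the arrays. Of 18 same-numbered pairs, 7 had a correlation of deviations above 0.1 (range -0.379 to 0.570), and in 12 of 36 cases an array correlated best with its own number. With 3 arrays a group such matches also arise often without pairing, and the check cannot show whether same-numbered arrays were handled together. With the replicate number as a block, no call of E2f7 or E2f8 changed (E2f7 in DKO minus WT 2.24, adjusted p = 6.56e-05), and DKO minus WT called 2610 genes higher against 2669 without it. Among the 27 followed results of other named genes, the block ended the call of E2f3 in DKO minus E2f8 KO (1.24, adjusted p = 0.0553).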

Other observations

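A short list of angiogenic genes tied to atypical E2Fs in other tissues was read for completeness. Of 4 genes, 3 were measured and Flt4 lay below the filter. Hif1a, which encodes a hypoxia factor that partners E2F7 and E2F8, differed from WT by -0.84 in E2f8 KO (adjusted p = 0.0966) and by -0.87 in DKO (adjusted p = 0.0667, limma). Vegfa, the growth factor gene that these proteins are known to regulate together, differed by 0.34 in DKO (adjusted p = 0.164). Nrp1, a co-receptor for it, was lower in DKO by 0.63 (log2 difference -0.63, adjusted p = 0.0208), a call lost without WT replicate 2 (-0.49, adjusted p = 0.1), DKO replicate 1 (-0.43, adjusted p = 0.0922) or DKO replicate 2 (-0.60, adjusted p = 0.0653).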
